A study of Mus musculus with 12 samples.

Results

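The genes described are Epha5, Efnb3, Enah, Unc5b and Dscam, which encode an ephrin receptor, an ephrin, an actin regulator of the growth cone, a netrin receptor and a cell adhesion molecule that also binds netrin. They were chosen as axon guidance genes among the genes with a listed peak of N6-methyladenosine (m6A), the commonest internal modification of messenger RNA. The choice was made with earlier results of these data known. A direction shared by the 5 is therefore no finding about axon guidance genes, of which 9 others with a listed peak are given below. Each of the 5 had 1 unique peak, so the 5 genes account for 5 of the 529 unique peaks and 5 of the 532 gene names in the deposited table. Peaks entered that table because the authors had called them differential on these same libraries, so the tests below are no independent evidence of a change. Per the methods, those calls used edgeR's likelihood ratio test with an option to remove unwanted variation, a step that no fit here included.

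Poly(A) RNA from individual hippocampi of male C57BL/6 mice was fragmented, and the fragments bound by an m6A antibody were sequenced (MeRIP-seq). Aged mice were 20 months old and young mice 3 months old, with no other treatment named, and each age had 3 immunoprecipitate libraries from different mice, chosen after a qPCR pre-check. The input libraries were not analysed here, so a difference in reads between the ages cannot be told apart from a difference in transcript level. In whole hippocampus, fewer cells of a type and less RNA per cell cannot be told apart either.

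Axons are steered by cues that attract or repel the growth cone at their tip. Ephrins are held on the surface of one cell and bind Eph receptor tyrosine kinases on another, and both partners can signal. Netrins attract axons through DCC and repel them through UNC5 receptors, DSCAM can take part in the netrin response, and Ena/VASP proteins such as that of Enah carry such signals to actin filaments. In the adult hippocampus these molecules are also known at synapses. The m6A mark is written mainly within a consensus called DRACH, meaning A, G or T, then A or G, then A, C, and A, C or T, of which GGAC is the best-known core. The antibody also recognises m6Am, a modified base next to the cap at the start of a transcript, and these reads do not tell the marks apart.

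Positions are on the mm10 build, as deposited, and all 5 genes lie on the minus strand. The Epha5 peak (chr5:84066640-84066840) was annotated as 3′UTR, the Efnb3 peak (chr11:69556082-69556293) as exon, and the Enah (chr1:182019779-182019997), Unc5b (chr10:60831222-60831439) and Dscam (chr16:97170360-97170560) peaks as 5′UTR. None of them overlapped another gene of GENCODE M21. The share of 5′UTR peaks was 3 of 5, against 231 of 529 (43.7%) in the whole table.

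The letters under the peaks differed between the genes, and a stretch of 4 of them is shown because they differ in whether they hold an m6A consensus at all. Each is given from 5′ to 3′ on the RNA strand. The Efnb3 line is its whole peak, chr11:69556083-69556293, mostly coding sequence, with the only DRACH site in capitals. The Enah line is from chr1:182019846-182019875 and the Unc5b line from chr10:60831406-60831435, both with GGAC in capitals. The Dscam line is the centre of its peak, chr16:97170446-97170475, with neither motif.
Efnb3: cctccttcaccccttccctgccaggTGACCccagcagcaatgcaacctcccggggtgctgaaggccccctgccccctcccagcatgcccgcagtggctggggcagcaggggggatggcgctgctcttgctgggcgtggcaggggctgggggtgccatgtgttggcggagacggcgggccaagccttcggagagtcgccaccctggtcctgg
Enah: cgggcGGACGGACGGACGGACGGACgggcg
Unc5b: cggagcagggcgcGGACggcgctcgcagcg
Dscam: cggcgcccgggagcaggtgtgcgggggcgc

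Of the 5 peaks, 1 held a DRACH site on the RNA strand (20%), against 453 of all 529 peaks (85.6%) and 183 of the 231 5′UTR peaks (79.2%). The site was TGACC, at base 26 of the Efnb3 peak. GGAC was found 6 times in the Enah peak, 5 of them in the run shown, and at 1 place in the Unc5b peak, always followed by G and so outside the consensus. Of all 529 peaks, 70.5% held GGAC. A match is a description of the letters and not a mapped site, and its absence says only that these letters are not in this window.

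The GC content was 84.5% for Dscam, 83.0% for Enah, 77.4% for Unc5b and 71.1% for Efnb3, with a median of 69.8% over all peaks and 76.6% over 5′UTR peaks. Epha5 stood at the other end, with 37.5%. Its peak was made almost wholly of purines (99.5%), with 1 C and 0 T in 200 bases. All of its bases were marked as repeat in the genome, which was so for 12 of the 529 peaks (2.27%). Exact copies of at least 50 bases, found at 2372 other places in the genome, covered 82% of the Epha5 peak, and copies of at least 100 bases covered 73.5% of it. The other 4 peaks had 0 such places. The authors kept uniquely mapped reads from fragments of about 100 bases, and whether every read counted at Epha5 came from that place was not tested.

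**Figure D1:**
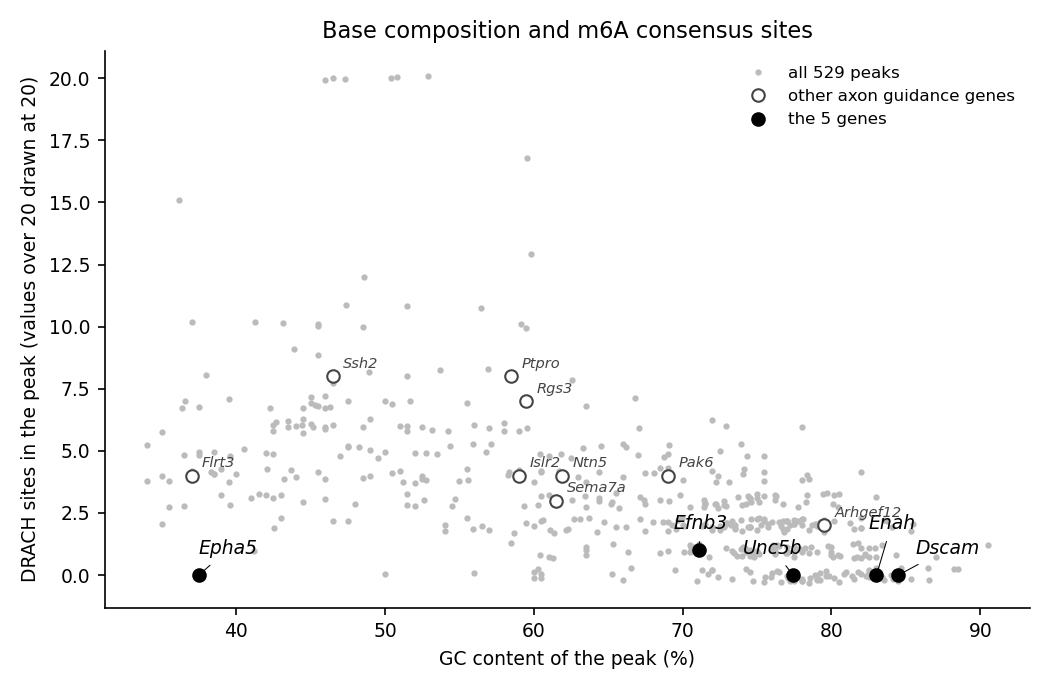
Number of DRACH sites against GC content (%) of each of the 529 peaks, with the 5 genes as filled black points, the other axon guidance genes as open circles and all peaks as grey dots, shifted slightly up or down for legibility and drawn at 20 where higher. Efnb3 holds 1 site and the other 4 genes hold 0, with Epha5 alone at low GC.

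The ages were compared to ask at which of these guidance transcripts the m6A immunoprecipitate differed in old hippocampus. The mean was higher in aged mice at all 5 peaks, with folds of 2.41 for Epha5, 1.80 for Enah, 1.58 for Efnb3, 1.43 for Dscam and 1.39 for Unc5b. None of the 5 passed edgeR's quasi-likelihood test at an adjusted p of 0.05 over the 529 peaks. Of all 529 peaks, 5 passed in the higher direction (0.945%) and 1 in the lower. At an unadjusted p under 0.05, 31 peaks were higher (5.86%), 2 of them at Epha5 and Enah. Of all listed peaks, 417 of the 529 peaks (78.8%) had a higher mean in aged mice, with a median log2 fold change of 0.45, so that the direction of the 5 was also that of most listed peaks. The median over the 5 was 0.66.

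Young library 2 stood apart from the other libraries of its age. The aged libraries held between 322474 and 697362 reads in listed peaks, young library 2 held 701150, and young libraries 1 and 3 held 537133 and 465628. Young library 2 was the highest of its age at 395 of the 529 peaks (74.7%). At 4 of the 5 genes, all but Epha5, it was the highest young library and lay within the aged range. It lay within the aged range, at whatever place among the young libraries, at 45.9% of all peaks. Levels below are reads per 1000000 (CPM) relative to an effective size recovered for each library. The sizes ran from 6995994 reads in aged library 2 to 14565976 in young library 1, with 12208497 in young library 2. The read totals above are not scaled to these sizes.

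Among the receptors, Epha5 is a receptor tyrosine kinase that binds A-type ephrins and is abundant in the hippocampus. Its peak held 288, 104 and 156 reads in aged libraries 1 to 3, against 146, 75 and 101 reads in young libraries 1 to 3. Scaled, these were 23.9, 14.9 and 17.0 CPM in aged mice, against 10.02, 6.14 and 6.95 CPM in young mice. Every aged library lay above every young library, which was so at 79 of the 529 peaks (14.9%) and at none of the other 4 genes. It was also so at 9 of the 12 peaks made wholly of repeat, Epha5 among them, whose median log2 fold change was 1.27. The means were 18.6 ± 4.70 CPM in aged mice and 7.71 ± 2.05 CPM in young mice (SD, n = 3 each). The log2 fold change was 1.27 ± 0.39 (SE), with a 95% interval of 0.51 to 2.03 and an adjusted p of 0.133 by the quasi-likelihood test. The call depended on the test. With the same sizes, edgeR's likelihood ratio test gave an adjusted p of 0.0452 and DESeq2's Wald test 0.0293, and under either test 10 of the 529 peaks passed as higher (1.89%), Epha5 being the only one of the 5 genes. The recovered library sizes are estimates and enter this call, and the 3 scalings that replaced them gave an adjusted p of 0.213 with column totals, 0.359 with TMM and 0.409 with DESeq2 size factors. Sizes recovered from other columns of the table were not used here. Over all alternatives its adjusted p ranged from 0.0027 to 0.447 and its log2 fold change lay between 0.69 and 1.51.

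The Epha5 peak had the fewest reads per length of the 5, 65.8 CPM per kilobase as a mean over the 6 libraries, which placed it at rank 469 of the 529 peaks. Its centre lay 619 bases after the end of the coding sequence, in a 3′UTR of 1847 bases. That 3′UTR belongs to 3 of the 6 Epha5 transcripts that span the peak, none of these 3 marked as principal. In the other 3 transcripts the same bases are intron. It was also the only one of the 5 at which young library 2 was the lowest young library, as it was at 6 of the 12 peaks made wholly of repeat. Young library 2 lay within the aged range at 0 of those 12.

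Unc5b encodes a netrin receptor best known for repulsion, which also acts in the endothelium of growing vessels. Its peak held 612, 243 and 461 reads in the aged libraries, against 420, 580 and 312 in the young ones. This came to 50.7, 34.7 and 50.4 CPM in aged mice, against 28.8, 47.5 and 21.5 CPM in young mice. The ages overlapped, since young library 2 lay between the lowest and the highest aged library. The means were 45.3 ± 9.14 CPM in aged mice and 32.6 ± 13.4 CPM in young mice (SD, n = 3 each), and the log2 fold change of 0.48 ± 0.36 (SE, 95% interval from -0.22 to 1.17) gave an adjusted p of 0.324. The peak lay within exon 1 of 17 of the principal transcript, with its centre 166 bases before the start codon. Of 6 marker genes of endothelium, mural cells and meninges, 0 had a listed peak.

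Dscam encodes an immunoglobulin-family adhesion molecule by which neurites of one cell avoid each other in the mouse retina. Its peak held 289, 142 and 267 reads in the aged libraries, against 215, 309 and 167 in the young ones. In CPM these were 24.0, 20.3 and 29.2 in aged mice, against 14.8, 25.3 and 11.5 in young mice. Again only young library 2 reached into the aged range. The means were 24.5 ± 4.46 CPM in aged mice and 17.2 ± 7.22 CPM in young mice (SD, n = 3 each), and the log2 fold change was 0.51 ± 0.36 (SE, 95% interval from -0.20 to 1.22, adjusted p of 0.322). Like that of Unc5b, the peak lay in the first exon, 1 of 33, with its centre 184 bases before the start codon. Dscam was on the list of oligodendrocyte precursor markers but is also neuronal, so its reads need not come from those cells. The only other gene of that list with a peak was Gpr17, a receptor of maturing oligodendrocytes. The 4 Gpr17 peaks together had 246, 198 and 219 CPM in aged mice, against 450, 375 and 587 CPM in young mice, the direction opposite to that of the Dscam means.

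The ligand Efnb3, ephrin-B3, is a transmembrane ephrin known as a midline repellent of corticospinal axons and as a component of myelin. Its peak was the most heavily read of the 5, at 478 CPM per kilobase (rank 96 of 529). It held 1778, 796 and 998 reads in the aged libraries, against 921, 1636 and 550 reads in the young ones. Scaled, the aged libraries had 147, 114 and 109 CPM, against 63.2, 134 and 37.8 CPM in young libraries 1 to 3. The young libraries were the more scattered ones, with a coefficient of variation of 16.9% in aged mice and 63.6% in young mice, and young library 2 exceeded 2 of the 3 aged libraries. The means of 123 ± 20.9 CPM in aged mice and 78.4 ± 49.8 CPM in young mice (SD, n = 3 each) gave a log2 fold change of 0.66 ± 0.42 (SE, 95% interval from -0.16 to 1.48, adjusted p of 0.294). This was the only one of the 5 peaks in coding sequence. In exon 5 of 5, 187 of its 211 bases were coding, from codon 205 to codon 267 of 340, and the remaining bases lay in the intron before it.

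Efnb3 was on the list of oligodendrocyte markers but is also neuronal. Of that list 4 of 10 genes had a listed peak, all with a higher mean in aged mice and 0 past the test. Without Efnb3, the 3 peaks of that list, at Apod, Hapln2 and Mobp, summed to 2071, 1478 and 1415 CPM in aged mice, against 999, 1543 and 743 CPM in young mice. Young library 2 was the highest young library in this sum as well as at Efnb3, as it was at 395 of all 529 peaks (74.7%). The mean was also higher in aged mice at 2 of 2 listed peaks for excitatory neurons and 2 of 2 for microglia. For inhibitory neurons this was 2 of 2, with 1 past the test, against 78.8% of all peaks. For oligodendrocyte precursors the mean was higher at 1 of 5 peaks. That peak was Dscam itself, and the 4 lower ones were all at the single gene Gpr17. The part of any cell type in the Efnb3 values was not tested. Astrocyte markers had 0 of 6 genes listed, and a table of selected peaks does not allow the tissue itself to be checked.

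The effector Enah, the mammalian Enabled protein (Mena), binds the growing ends of actin filaments in filopodia. Its peak held 636, 267 and 803 reads in the aged libraries, against 418, 577 and 339 in the young ones. These came to 52.7, 38.2 and 87.8 CPM in aged mice, against 28.7, 47.3 and 23.3 CPM in young mice. Aged library 3 stood well above the others, and young library 2 lay above the lowest aged library. The means were 59.6 ± 25.5 CPM in aged mice and 33.1 ± 12.6 CPM in young mice (SD, n = 3 each). The log2 fold change was 0.85 ± 0.38 (SE, 95% interval from 0.11 to 1.59), with an adjusted p of 0.173. Without aged library 3 the log2 fold change was 0.46. The peak covered the transcript start of Enah and reached 7 bases beyond the annotated start of its transcript Enah-202.

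**Figure D2:**
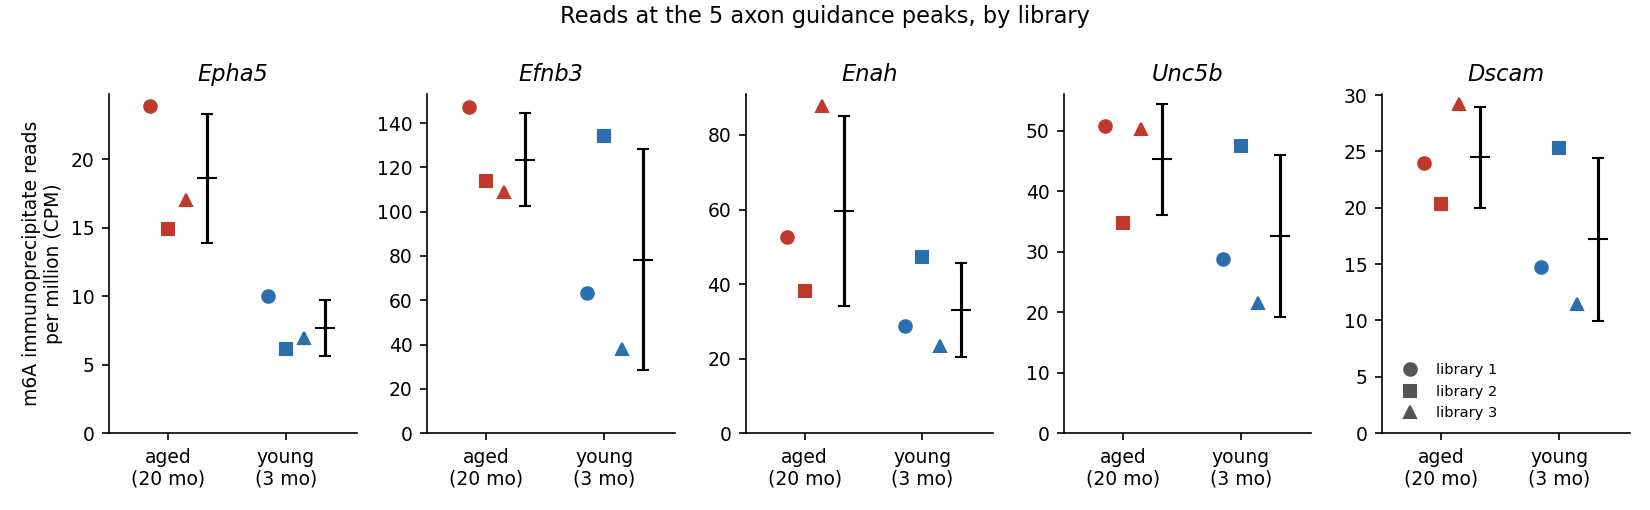
Reads per 1000000 (CPM) at the 5 peaks in each library, aged mice (red) left of young mice (blue). Circles, squares and triangles are libraries 1, 2 and 3 of an age, which were not treated as pairs. The horizontal tick and bar beside each group are the mean and SD of 3 libraries. At Epha5 the aged libraries all lie above the young ones, and at the other 4 genes young library 2 (blue square) reaches into the aged range.

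Leaving out young library 2 changed the calls. The quasi-likelihood test then passed 389 of the 529 peaks as higher (73.5%), among them all 5 genes. The log2 fold change without that library was 1.29 for Efnb3 (adjusted p of 1.4e-04), 1.20 for Enah (2.8e-04), 1.14 for Epha5 (0.0027), 0.90 for Dscam (0.0064) and 0.85 for Unc5b (0.0043). Efnb3 moved most and Epha5 was lower without it. With any other single library left out, none of the 5 passed. Without young library 3 the log2 fold changes were lower, 0.32 for Efnb3, 0.29 for Dscam and 0.25 for Unc5b. A share of 5 in 5 stands beside a table in which nearly every peak passed under that setting, in 1 direction or the other (494 of 529).

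**Figure D3:**
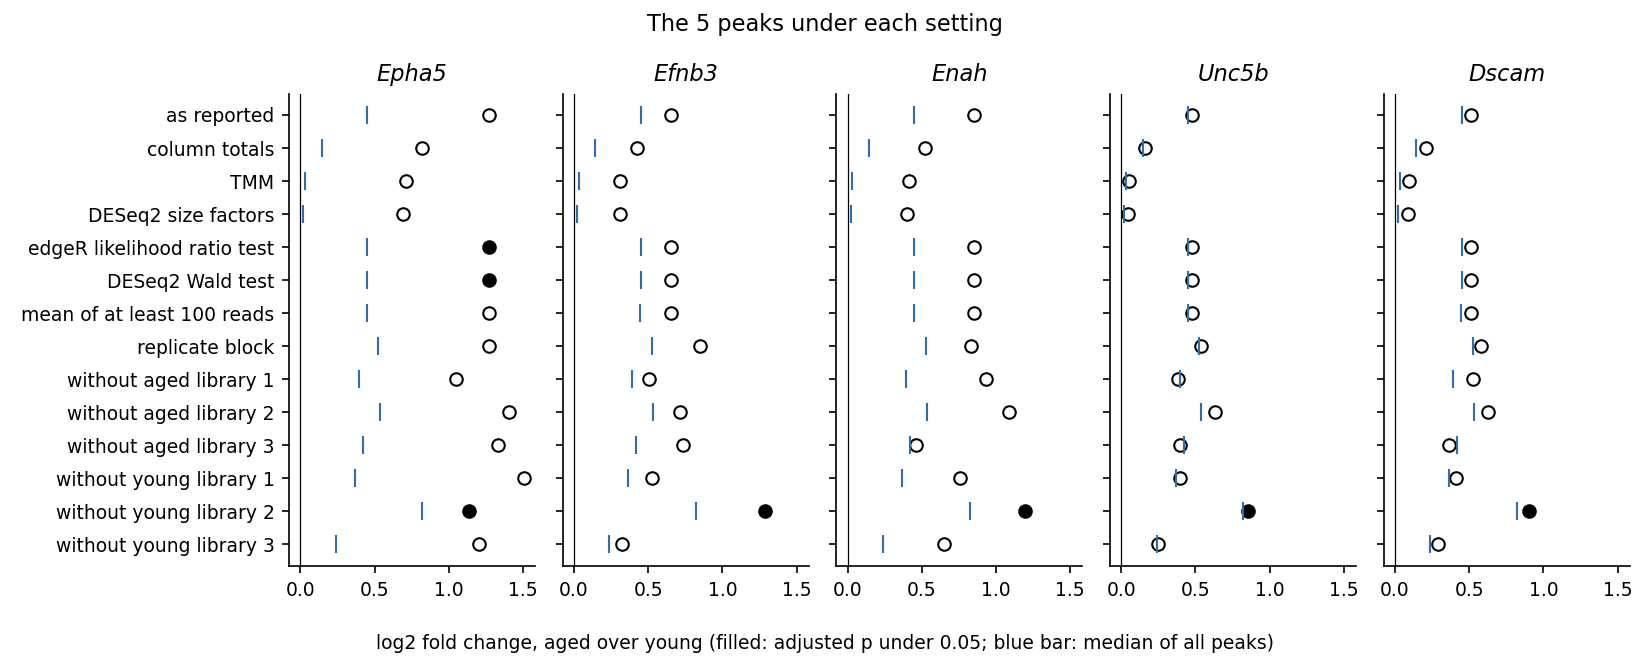
Log2 fold change, aged over young, of each of the 5 peaks under the reported setting and each alternative; filled points passed an adjusted p of 0.05, and the blue bar is the median of all peaks tested under that setting. Every point lies above 0, all 5 are filled only without young library 2, and Epha5 alone is filled under the likelihood ratio and Wald tests.

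The scaling moved all values together. Column totals, TMM and DESeq2 size factors lowered the median log2 fold change of all peaks by 0.30, 0.42 and 0.43. TMM and DESeq2 size factors assume that most peaks are unchanged, whereas these peaks were listed because they were called differential. They brought the median to 0.03 and 0.02, against 0.45 as reported. Under these 3 scalings the 5 genes had values between 0.04 (Unc5b, DESeq2 size factors) and 0.82 (Epha5, column totals), all above 0 and all above the median of the table, with none past the test.

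Over the 6 libraries, the Epha5 peak varied less like the other 4 than they did like each other. The difference between any 2 peaks was taken as the root mean square of their log2 CPM after each was centred on its own mean, so that 0 would be an identical pattern. Unc5b and Dscam were the closest pair, 0.10 apart, and Enah lay 0.24 from Dscam. Epha5 was 0.61 to 0.68 from each of the other 4. These distances describe 6 libraries that the peaks share, and the height of young library 2 enters every one of them. The log2 ratio of young library 2 to young library 3 was -0.18 at Epha5, which was also the median of the 12 peaks made wholly of repeat, so this trait is not particular to Epha5.

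Among peaks of genes outside the guidance list, those nearest to Unc5b were Ube4b and Dlg1, each 0.05 away, where the median of 515 peaks was 0.26. For Dscam they were a peak shared by Jund and Gm11175 (0.05) and Large (0.07), and for Enah they were Adcy2 (0.11) and Nrg3 (0.13). All of these were annotated at the 5′UTR, with GC contents from 72% to 82%. Efnb3 had an exonic peak of Pcsk1n close to it (0.08). Epha5 had no peak as close. Its nearest were an intronic peak of Fars2 (0.23) and Neat1 (0.31), a noncoding RNA, and the median distance to all 515 was 0.65. Neat1 had 295, 196 and 298 CPM in aged mice, against 171, 140 and 137 CPM in young mice.

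Of 168 axon guidance genes sorted by role, 14 had a listed peak, the 5 described and 9 others. By role these were 1 of 14 Eph receptors, 1 of 8 ephrins, 3 of 17 genes of the netrin group, 1 of 20 semaphorins, 3 of 28 adhesion and other guidance molecules and 5 of 63 intracellular effectors. No slit or Robo gene (0 of 7) and no plexin or neuropilin (0 of 11) was listed. The table holds only peaks called differential, so the share among other genes with a peak is not known from it. These counts are therefore not read as high or low for any role. The mean was higher in aged mice at 9 of the 14 peaks and lower at 5. None of the 14 passed the quasi-likelihood test, which 1 of the 529 peaks passed as lower (0.189%). An unadjusted p under 0.05 was found at 6 of the 14, against 133 of all peaks (25.1%). The 6 were the higher peaks of Epha5 and Enah and the lower peaks of Ssh2, Flrt3, Islr2 and Ptpro. Of the 133, 102 were lower and 31 higher, in a table with 112 lower and 417 higher peaks. Without young library 2 all 14 passed, each in the direction of its mean, as did 494 of all 529 peaks (389 higher and 105 lower).

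Of the other higher peaks, Arhgef12, an exchange factor for small GTPases that acts downstream of plexin-B receptors, had a log2 fold change of 0.60 in its 5′UTR. Ntn5, of the netrin family, had 0.51 at an intronic peak that also lies in the gene Sec1. Sema7a, a membrane-anchored semaphorin, had 0.46 in its 3′UTR, and Pak6, a kinase of the p21-activated family, 0.42 in its 5′UTR. Single libraries moved the values of Sema7a and Pak6 by over 1.5 times. Sema7a had 1.01 without young library 2, 0.23 without young library 3, 0.25 without aged library 1 and 0.26 without young library 1. Pak6 had 0.73 without young library 2 and 0.22 without young library 3, and it changed sign under TMM (-0.0075) and DESeq2 size factors (-0.0173). At Ntn5 the aged libraries had 26.8, 21.4 and 18.5 CPM, against 14.6, 18.1 and 14.2 CPM in young mice. Every aged library thus lay above every young library, as at Epha5. This was so at 2 of the 14 guidance peaks, near the share of the whole table (79 of 529, 14.9%). The adjusted p-values of Arhgef12, Ntn5, Sema7a and Pak6 lay between 0.277 and 0.356.

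The 5 lower peaks were Ssh2, Flrt3, Islr2, Ptpro and Rgs3. Flrt3 encodes a leucine-rich repeat protein that binds UNC5 receptors, and Ptpro a receptor phosphatase that acts on Eph receptors. Islr2 encodes a leucine-rich repeat and immunoglobulin protein of axons, Ssh2 a phosphatase that activates cofilin, and Rgs3 a G protein regulator, 1 form of which binds B-type ephrins. Flrt3 had 9.53, 10.4 and 16.1 CPM in aged mice, against 27.9, 15.1 and 25.2 CPM in young mice, a log2 fold change of -0.92 (adjusted p of 0.173). Islr2 had 26.03, 21.7 and 25.9 CPM in aged mice, against 39.7, 46.9 and 46.0 CPM in young mice, a log2 fold change of -0.85 (adjusted p of 0.173). At 4 of the 5, all but Flrt3, every aged library lay below every young library. This was so at 94 of the 529 peaks (17.8%). All 94 were among the 112 peaks with a lower mean in aged mice, so it was usual for a lower peak. The log2 fold changes of Ssh2, Ptpro and Rgs3 were -0.98, -0.83 and -0.80.

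Flrt3 is shown as 1 example, for its product's tie to UNC5 receptors, and had the lowest GC content of the 5 (37%). Its whole peak (chr2:140661278-140661477, RNA strand, 5′ to 3′) follows with its 4 DRACH sites in capitals.
Flrt3: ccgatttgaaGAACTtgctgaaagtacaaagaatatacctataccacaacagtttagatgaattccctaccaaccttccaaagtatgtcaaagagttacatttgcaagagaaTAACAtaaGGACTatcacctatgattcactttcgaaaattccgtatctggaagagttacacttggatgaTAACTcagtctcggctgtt

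All 5 lower peaks were annotated as exon, held 4 to 8 DRACH sites each and had GC contents of 37% to 59.5%, whereas the 5 genes described held 0 or 1 DRACH site. The 4 other higher guidance peaks held 2 to 4. Of all 112 lower peaks, 76 (67.9%) were annotated as exon alone and 99.1% held a DRACH site. Their median was 6 sites and their median GC content 45.5%. The scaling changed the calls of the 5. TMM and DESeq2 size factors assume mostly unchanged peaks, which a table of peaks selected as differential does not provide, so their calls carry that limit. With TMM, Islr2 (adjusted p of 0.0328), Ptpro (0.0369), Ssh2 (0.042) and Flrt3 (0.0464) passed as lower. They were among 87 of the 529 peaks (16.4%) that did so, in a table with 112 lower peaks as reported. Passing as lower with TMM was thus common among lower peaks. With DESeq2 size factors Islr2 (0.0493) and Ptpro (0.0494) passed, among 45 lower calls, and Ssh2 (0.0533) and Flrt3 (0.0594) did not. With column totals only Islr2 passed (0.0366), among 3 lower calls. The Flrt3 peak also lies in Macrod2 and the Islr2 peak in Islr, and exact copies of at least 50 bases covered 98.5% of the Rgs3 peak, so the source of those reads is uncertain.

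**Figure D4:**
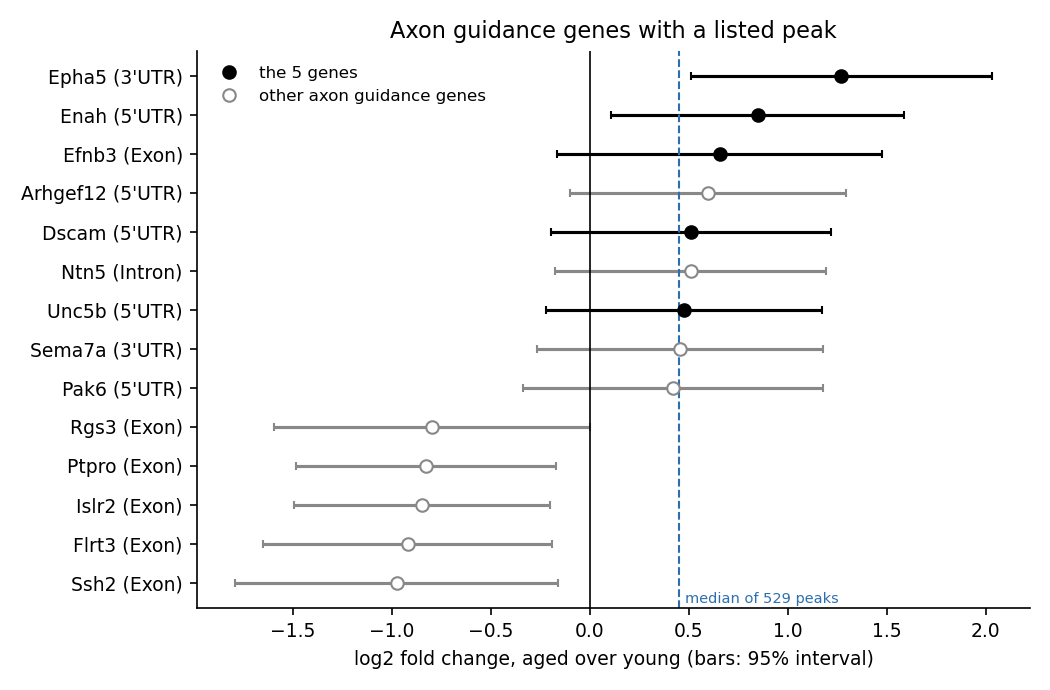
Log2 fold change, aged over young, at the peaks of the 14 listed axon guidance genes, with the deposited annotation in brackets; bars are 95% intervals, filled points are the 5 genes and the dashed line is the median of all 529 peaks. The 5 genes lie at 0.48 to 1.27 on the higher side. The 5 lower peaks are all exonic, as were 67.9% of all lower peaks.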

How the data were processed

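The deposited table holds read counts per peak for the 3 aged and 3 young immunoprecipitate libraries, which the authors did not normalise. Per the submitters' processing notes and the methods, reads were trimmed (Trimmomatic 0.36), cleared of ribosomal and PhiX reads (Bowtie2 2.2.7 is named) and aligned to mm10 with STAR 2.5.3a. Uniquely mapped reads were kept with SAMtools 1.3, and peaks called over input by MACS2 2.2.1 were recentred on their summit. Reads per peak were counted with Subread 1.6.4, and bedtools 2.25.0 served for annotation. Whether reads were counted by strand is not given in the sources used here. The table also holds the authors' fold changes, likelihood ratios, p-values and adjusted p-values, which were not used.

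Its 862 rows hold 529 unique peaks. Because only selected peaks are listed, column totals (322474 to 701150 reads) are not depths. An effective size per library was recovered by robust least squares from the deposited average log2 abundance of each peak, which the authors computed over all 6 libraries (median absolute residual 0.003 log2). These sizes carry the authors' scaling. The median count per peak was 259 to 521 reads.

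In R 4.3.3, aged and young libraries were compared by the two-sided quasi-likelihood test of edgeR 4.0.16, without covariates and with Benjamini-Hochberg adjustment over 529 peaks at 0.05. Each SE was derived as the absolute log2 fold change divided by the square root of the test's F statistic. The 95% intervals used normal quantiles, so they are approximate and narrower than the test's own distribution would give. The authors' methods name edgeR's likelihood ratio test with thresholds on fold change and adjusted p, and an option to remove unwanted variation (RUV). No fit here used RUV, and whether that step accounts for the fewer calls here was not tested. Scripts were tested on simulated data. As alternatives, the scaling was set by TMM, column totals or the size factors of DESeq2 1.42.0, and the likelihood ratio and Wald tests, a mean of at least 100 reads, a threshold of 0.01, a replicate block and leaving out each library were tried. Sequences came from the GRCm38 assembly (mm10), taking starts as 0-based, which the table does not state, and exact copies were found with blastn 2.17.0. The 168 guidance genes and the cell type markers were lists of known genes. All 5 genes, every listed guidance gene and the 2 nearest other peaks of each are named, except that some items are not reported here. The members and lists were chosen with earlier results of these data known.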

Additional observations from a re-analysis of the deposited data

How the results depend on the processing

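The 5 genes kept a log2 fold change above 0 under every alternative, from 0.04 to 1.51. The number of them past the test was 0 as reported, 1 (Epha5) under the likelihood ratio test, 1 under the DESeq2 Wald test, and 0 to 5 with one library left out, 5 being without young library 2. The number of all peaks past the test was 6 as reported, 93 with TMM (6 higher and 87 lower), 51 with DESeq2 size factors (6 higher and 45 lower), 14 under the likelihood ratio test, 14 under the Wald test, and 5 to 494 with one library left out, where without young library 2 it was 494 (389 higher and 105 lower). Column totals gave 9, a mean of at least 100 reads 5 of 508 and a threshold of 0.01 gave 5, none of them at the 5 genes. The Pak6 value changed sign, to -0.0075 with TMM and -0.0173 with DESeq2 size factors; the cause was not tested beyond the shift of the median of all peaks by -0.42 and -0.43. With column totals Islr2 passed at a log2 fold change of -1.25 (adjusted p of 0.0366).

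The deviations of same-numbered libraries over peaks had correlations of -0.185, -0.041 and -0.021. With 3 libraries per age these cannot decide whether same-numbered libraries shared a preparation, and no pairing was assumed. With the replicate block 6 peaks passed, 0 of them at the 5 genes. Both the scaling and leaving out young library 2 moved the values of the 5 genes. Whether the mice came from separate cages or litters is not given in the sources used here, and replicate spread may hold technical variation. Counts were lowest at Epha5, with 75 to 288 reads per library.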
